A study of Mus musculus with 4 samples.

Results

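The cytoplasmic ribosomal protein genes encode the protein part of the ribosomes that translate nuclear messages. They were taken from the table by symbol: every name that begins Rpl or Rps followed by a digit, together with Rpsa, Rplp0, Rplp1 and Rplp2, leaving out names marked as pseudogenes and the Rps6 kinases. The rule found 87 of the 22863 genes listed. Of these, 43 encode large subunit proteins, 31 small subunit proteins, 3 the stalk proteins of the large subunit and 9 paralogs or retrocopies of these genes. The last, Rps19bp1, encodes a protein that binds Rps19 and is not part of the ribosome.

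The RNA came from eyes of melatonin-proficient C3H/f+/+ mice, a line without the Pde6b mutation that causes retinal degeneration in the original C3H strain, and the study asked whether light history changes gene expression alongside rod dark adaptation. The objective day mice (OD) had seen light in the morning and were dark-adapted for 1 hour before collection at noon, ZT 6. The subjective day mice (SD) were collected at the same clock time, CT 6, after 18 hours of darkness according to the methods, although another passage gives 30 hours. There were 2 biological replicates per condition, each pooling both eyes of 1 female and 1 male, 4 eyes in all, age-matched with no age stated for the sequenced mice. Both conditions were entrained to the same light-dark cycle, and the tissue was retina, RPE, choroid and posterior sclera with the lens removed.

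Each ribosome carries a single copy of most of its proteins, and cells keep the corresponding mRNAs in balance. The mRNAs share a short run of pyrimidines at the very start, the TOP motif, through which mTOR and Larp1 adjust their translation to nutrient and growth signals. Photoreceptors renew their outer segments daily and so make protein at a high rate.

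Starts of 7 members are shown, 6 of them because they carry the TOP run at an annotated start and Rpl22l1 because it is the member that was called. Each line gives 10 bases before and 15 bases from a RefSeq start (GRCm38.p6, gene strand, 5′ to 3′), and capitals mark the unbroken pyrimidine run that begins at the annotated first base. Rpl15 (chr14:18270972-18270996, minus strand) and Rpl35a (chr16:33056472-33056496, plus strand) had log2 fold changes, objective minus subjective day, of -0.26 and -0.22, while those of Rps6 (chr4:86857353-86857377, minus strand), Rpl28 (chr7:4792955-4792979, plus strand) and Rplp2 (chr7:141447641-141447665, plus strand) were 0.25, 0.25 and 0.16. Rpl38 (chr11:114668570-114668594, plus strand) stood at 0.06, and none of these 6 passed the test (limma). Rpl22l1 (chr3:28805498-28805522, plus strand) had the largest difference of the tested members. Rpl35a has further annotated starts without the run, which are not shown.
Rpl15: agaaagccttCTTCCTTTCCTCTgg
Rpl35a: gcttgccttcCTCTTTCCgccatct
Rps6: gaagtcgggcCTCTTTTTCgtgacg
Rpl28: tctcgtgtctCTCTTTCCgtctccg
Rplp2: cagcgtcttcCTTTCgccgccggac
Rpl38: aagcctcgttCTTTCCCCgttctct
Rpl22l1: gcgcaagcccgttctcttcccacgg

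A run of at least 5 pyrimidines that opens with C at the annotated start was present in 13 of the 64 members with a RefSeq start, or 20.3%, compared with 3.01% of 27025 genes with a start. Allowing the run to open anywhere within 5 bases of the start raised this to 29 members, or 45.3%, against 21.2% of all genes. The line of Rpl22l1 has no run at its annotated first base, but within 5 bases of it there is a run of 8 pyrimidines, counted from its first C. A gene with several annotated starts was counted when any of them held the run. The median log2 fold change, objective minus subjective day, was 0.13 for the 13 members with the run at the start and 0.09 for the 50 tested members without it. Of these, 10 of the 13 and 39 of the 50 were above 0. A match in this window is a description of the sequence alone.

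The authors scaled the gene counts so that libraries have a like size, and these fractional values are called adjusted counts here. Hence their totals of 33278417 to 35236783 per sample do not give the number of reads. Low values stepped in units of about 0.929 and 0.952 in the OD samples and of 0.998 and 1.11 in the SD samples, a larger unit meaning fewer reads, which places SD 2 as the shallowest library. The log2 values of replicates correlated across genes with r = 0.993 in OD and 0.991 in SD. The 8 rod markers, which define the retina in this tissue, were high in every sample and together held 5.84% to 7.33% of each total. Lens markers were still present and varied within conditions. Genes were tested with limma on log2(value + 1) where the value reached 10 in at least 2 samples, and 17784 genes passed.

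Of the 87 members, 86 passed that filter, and the mean adjusted count of the 77 subunit and stalk genes ran from 817 (Rpl29) to 15715 (Rpl4). The member that failed was Rpl39l, a paralog of Rpl39 known for its use in testis, with adjusted counts of 2.78 and 6.73 in OD and of 9.99 and 3.48 in SD. The lowest member that passed was Rps3a2, a processed copy of Rps3a1, at 30.1 and 40.2 in OD and 39.9 and 42.1 in SD. All other members lay well above the filter.

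**Figure D1:**
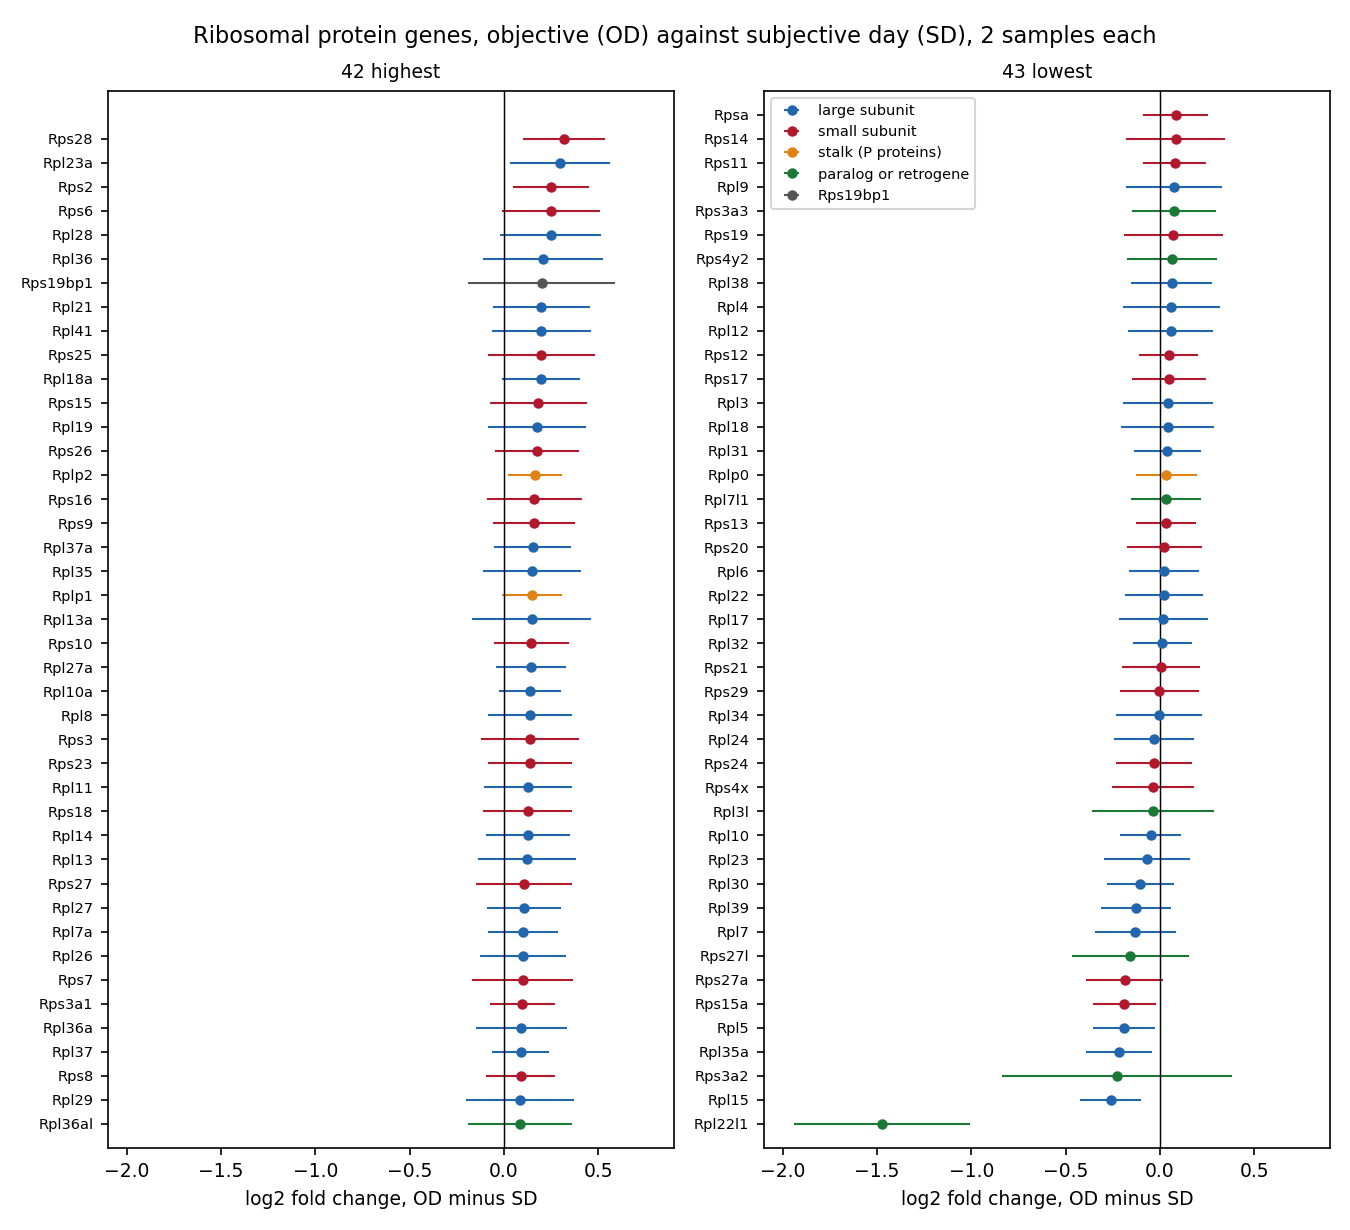
Log2 fold change (objective minus subjective day) of 85 of the 86 tested ribosomal protein genes with 95% confidence intervals from limma, ordered by size and coloured by class. Rpl22l1 stands alone at -1.47, and most intervals lie within 0.5 of 0 on either side.

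A single ribosomal protein gene passed the test between objective and subjective day, the paralog Rpl22l1, and it was lower in objective day. No member was called higher. Across all tested genes 8.51% were called, 7.45% lower and 1.06% higher, or 1325 and 189 genes. With upper quartile scaling the split was 1242 lower and 443 higher genes, and Rps28 joined Rpl22l1 among the members called. At an unadjusted p under 0.05 there were 9 members of 86, or 10.5%, while 25.4% of all genes met this level. Since the tissue was bulk, fewer cells of a type and less RNA per cell cannot be told apart for any gene described here.

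The subunit genes kept close to each other. Their median log2 fold change was 0.09 with an SD of 0.12 across the 77 genes, and the extremes were Rpl15 at -0.26 and Rps28 at 0.32. The middle 50% of the tested members spanned 0.13 on the log2 scale, compared with 0.32 for all tested genes and 0.25 for the 6647 genes with a mean adjusted count of at least 1000. The members were above 0 in 66 cases and below 0 in 20, around a median of 0.083 (all tested genes 0.015). For 78 of the 86 the 95% confidence interval lay within 0.5 on either side of 0. This held for 5893 of the 6647 genes with a mean of at least 1000 as well, a similar share.

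Large and small subunit genes did not part from each other. The median log2 fold change was 0.084 over the 43 large subunit genes, of which 33 were above 0, and 0.088 over the 31 small subunit genes, of which 25 were above 0. The summed adjusted count of the large subunit and stalk genes together was 1.47 and 1.44 times that of the small subunit genes in OD and 1.47 in both SD samples. The conditions overlapped in this ratio (exact permutation test, two-sided, p = 1, n = 2 per condition). With 2 against 2 samples an exact permutation test cannot go below p = 0.333.

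A single sample stood out from the other 3. SD 2 had the lowest of the 4 values in 74 of the 86 members, or 86.0%. The share was 34.2% over all tested genes and 43.3% over genes with a mean of at least 1000. All 77 subunit and stalk genes were lower in SD 2 than in SD 1, by amounts from 0.04 (Rplp2) to 0.42 (Rpl13a) on the log2 scale. At the median the members were 16.2% lower in SD 2 than in SD 1, a log2 difference of -0.26, while all tested genes differed by -0.02 and genes with a mean of at least 1000 by -0.04. Of the lists described further on, SD 2 was the lowest sample in 65.6% of the ribosome biogenesis genes and 55.3% of the mitochondrial ribosomal protein genes. The share was 55% in the other TOP mRNAs. The median differences of these lists between SD 2 and SD 1 were -0.19, -0.13 and -0.13. For the regulators and for the chaperones and importers, the shares were 28% and 36.4% and the median differences 0.02 and -0.09. Of the tested members, only the paralogs Rps27l and Rps3a2 were higher in SD 2 than in SD 1. The members' median difference between OD 2 and OD 1 was smaller, at -0.06. These within-condition differences are descriptions of single libraries and carry no test.

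**Figure D2:**
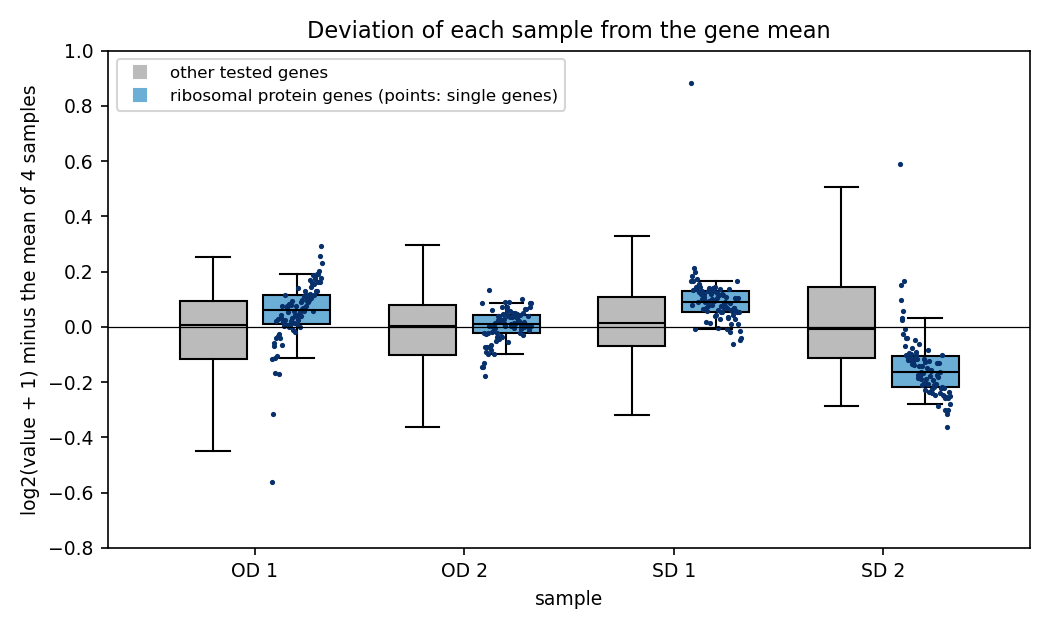
Deviation of each sample from the gene's mean over 4 samples, in log2(value + 1), for other tested genes (grey boxes) and ribosomal protein genes (blue boxes and points, ordered by fold change from left to right within a sample). Boxes span the middle 50% and whiskers the 5th to 95th percentile, and 1 point below the axis (Rpl22l1 in OD 2) is not drawn. The ribosomal protein genes sit at medians of 0.06, 0.01 and 0.09 in OD 1, OD 2 and SD 1, and at -0.16 in SD 2.

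Summed over the 87 members, the share of the sample total was 0.835% and 0.836% in OD and 0.835% and 0.709% in SD. Thus 3 samples of both conditions were nearly equal, and SD 2 was 15.1% below their mean. The conditions did not overlap, but by a margin far smaller than the spread within SD (means with standard deviations 0.836% ± 0.0003 in objective and 0.772% ± 0.0889 in subjective day, n = 2 each, exact permutation test, two-sided, p = 0.333). In the same sample several marker sums were also at their lowest of the 4: all 5 lens markers were lower in SD 2 than in each other sample (summed adjusted counts 39577 and 10214 in OD, 33100 and 4186 in SD), as were all 5 cone markers (25823 and 27490 in OD, 25462 and 22852 in SD) and 7 of 8 rod markers (7.33% and 6.85% of the total in OD, 6.56% and 5.84% in SD). The part of tissue makeup and depth in the ribosomal protein shift was not tested.

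How many members were called depended on which SD library was used. Without SD 2, the median log2 fold change of the members was -0.057, 63 of the 86 were below 0, and 2 passed the test, Rpl22l1 and Rps27a, both lower in objective day (7.25% of all genes were called, 6.22% lower). Without SD 1, the median was 0.20, 76 were above 0, and 29 passed, 28 of them higher in objective day. Of all genes 14.4% were called in that fit, 4.87% higher and 9.51% lower. The smallest adjusted p among these 28 was 0.00502, for Rps6 (limma). Rpl22l1 was the only member called in both fits. In each of them the lone SD library is assumed to vary like the OD pair.

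Among the large subunit genes, the largest values in objective over subjective day belonged to Rpl23a and Rpl28. Rpl23a, which lines the peptide exit tunnel, measured 1517 and 1240 in OD and 1198 and 1040 in SD. Its conditions did not overlap, and the log2 fold change was 0.30 ± 0.11 (SE, limma, adjusted p = 0.153). Rpl28 measured 3288 and 2731 in OD and 2773 and 2300 in SD, with overlapping conditions and a log2 fold change of 0.25 (adjusted p = 0.229, limma). Without SD 2 the log2 fold changes of Rpl23a and Rpl28 were 0.19 and 0.11, and without SD 1 they were 0.40 and 0.38 and both passed the test (adjusted p = 0.0434 and 0.0363, limma).

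The opposite end of the large subunit held Rpl15, Rpl35a and Rpl5. Rpl15, a core protein of the large subunit, measured 984 and 964 in OD and 1196 and 1140 in SD. Both OD samples were below both SD samples, and its log2 fold change of -0.26 ± 0.07 (SE) came next to the threshold (adjusted p = 0.0601, limma). Rpl35a, mutated in some patients with Diamond-Blackfan anaemia, measured 1469 and 1393 against 1751 and 1577, a log2 fold change of -0.22 (adjusted p = 0.128, limma). Rpl5, which with Rpl11 and 5S RNA forms the particle that restrains Mdm2 when ribosome assembly fails, measured 2769 and 2637 in OD and 3235 and 2939 in SD (log2 fold change -0.19, adjusted p = 0.143, limma). With the GC trend removed the fold change of Rpl5 was 0.09. Its partner Rpl11 measured 2371 and 2331 in OD and 2396 and 1933 in SD, where only SD 2 was low (log2 fold change 0.13, adjusted p = 0.469, limma).

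Other large subunit genes with roles of their own did not pass the test, with log2 fold changes of -0.05 for Rpl10, 0.06 for Rpl38 and 0.15 for Rpl13a. Rpl10, which is loaded last in the cytoplasm and completes the peptidyl transferase centre, measured 1703 and 1707 in OD and 1844 and 1687 in SD. Rpl38, linked to selective translation of Hox mRNAs, measured 2556 and 2709 in OD and 2760 and 2301 in SD. Rpl13a, which can leave the ribosome to silence inflammatory mRNAs, spread more widely, at 8211 and 7188 in OD and 8036 and 5986 in SD. Each of the 3 genes had overlapping conditions. Without SD 1 the log2 fold change of Rpl13a was 0.36, which passed the test (adjusted p = 0.0271, limma), and without SD 2 it was -0.06. Rpl24 was left out of the count of overlaps, since its identifier carries another gene name in the annotation used. Exons of 13 other members overlap a coding gene on the opposite strand, among them Rpl15, Rpl5, Rpl23a and Rpl28 above and Rps28 and Rps27a of the small subunit. Reads of such pairs cannot be told apart without the strand setting. Rpl13a, Rpl36al and Rps10 overlap a coding gene on the same strand, where a strand setting would not separate the reads.

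In the small subunit Rps28 had the highest fold change of all members in the fit of all 4 samples. With the GC trend removed Rps20 was highest at 0.41, up from 0.02, and Rps28 stood at 0.25. Rps28 measured 3491 and 3157 in OD and 2895 and 2454 in SD. Both OD samples were above both SD samples, by 0.32 ± 0.09 on the log2 scale (SE, adjusted p = 0.0818, limma). Rps2, which sits at the mRNA entry channel, measured 3449 and 3208 in OD and 3024 and 2593 in SD (0.25, adjusted p = 0.124, limma). Rps6, the substrate of the S6 kinases downstream of mTOR, measured 3219 and 3058 in OD and 2991 and 2334 in SD (0.25, adjusted p = 0.216, limma). For Rps28, Rps2 and Rps6 the SD 1 value was nearer to OD than the SD 2 value was. Without SD 2 their log2 fold changes were 0.20 for Rps28, 0.14 for Rps2 and 0.07 for Rps6, while without SD 1 they were 0.44, 0.36 and 0.43 and all 3 passed the test (adjusted p = 0.00737, 0.0140 and 0.00502, limma).

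The remaining small subunit genes named for their roles did not pass the test either. Rps27a, which is made as a fusion with ubiquitin, was lower in objective day, at 1450 and 1491 against 1821 and 1541 (log2 fold change -0.19, adjusted p = 0.233, limma). The small subunit protein Rps15a behaved alike in value, at 2548 and 2816 against 3135 and 2976. Rps19, the gene most often mutated in that anaemia, measured 1354 and 1313 in OD and 1434 and 1123 in SD. Rps3, which also acts in DNA repair, measured 8767 and 8327 in OD and 8788 and 6869 in SD. Rpsa, also known as the laminin receptor, measured 5238 and 5463 in OD and 5356 and 4762 in SD, where the lowest value was again that of SD 2.

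The 3 stalk genes, whose products recruit the elongation factors, had log2 fold changes above 0, of which that of Rplp0 turned below 0 once the GC trend was removed. Rplp1 measured 8566 and 8206 in OD and 7867 and 7274 in SD, a log2 fold change of 0.15 ± 0.07 (SE, adjusted p = 0.220, limma). Rplp2 measured 2375 and 2271 in OD and 2103 and 2043 in SD (0.16 ± 0.06, adjusted p = 0.150, limma). In both genes the conditions did not overlap, and SD 1 and SD 2 lay closer together than in most members. Rplp0, the base of the stalk and a frequent reference gene, overlapped at 6045 and 6112 in OD and 6247 and 5648 in SD (0.03, adjusted p = 0.801, limma). With the GC trend removed the values were 0.04 for Rplp1, 0.07 for Rplp2 and -0.03 for Rplp0.

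Over the members, the 2 conditions did not overlap for 18 of the 86 (20.9%), 7 lower and 11 higher in objective day, compared with 56.1% of all tested genes. Over all genes 28.2% were apart with objective day lower and 27.9% with objective day higher.

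Rpl22l1 is the paralog of Rpl22, an RNA-binding protein of the large subunit that represses the paralog's mRNA and that Rpl22l1 can replace in the ribosome. The gene (ENSMUSG00000039221) lies on chromosome 3 of GRCm38, from 28805436 to 28807424 on the plus strand, and the transcript used here has 4 exons and 552 bases. It measured 63.5 and 49.6 in OD and 175 and 142 in SD, with no overlap. Subjective day was 2.78-fold higher on the log2(value + 1) scale (95% confidence interval 2.01 to 3.84), or a log2 fold change of -1.47 ± 0.20 (SE) for objective day, with an adjusted p of 0.00720 (limma). Rpl22 itself measured 3513 and 3438 in OD and 3744 and 3136 in SD (log2 fold change 0.02, adjusted p = 0.911, limma). The paralog stood at 1.81% and 1.44% of Rpl22 in OD and at 4.67% and 4.53% in SD (exact permutation test, two-sided, p = 0.333). Leaving out any 1 library kept Rpl22l1 lower, by 1.30 to 1.65 on the log2 scale.

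**Figure D3:**
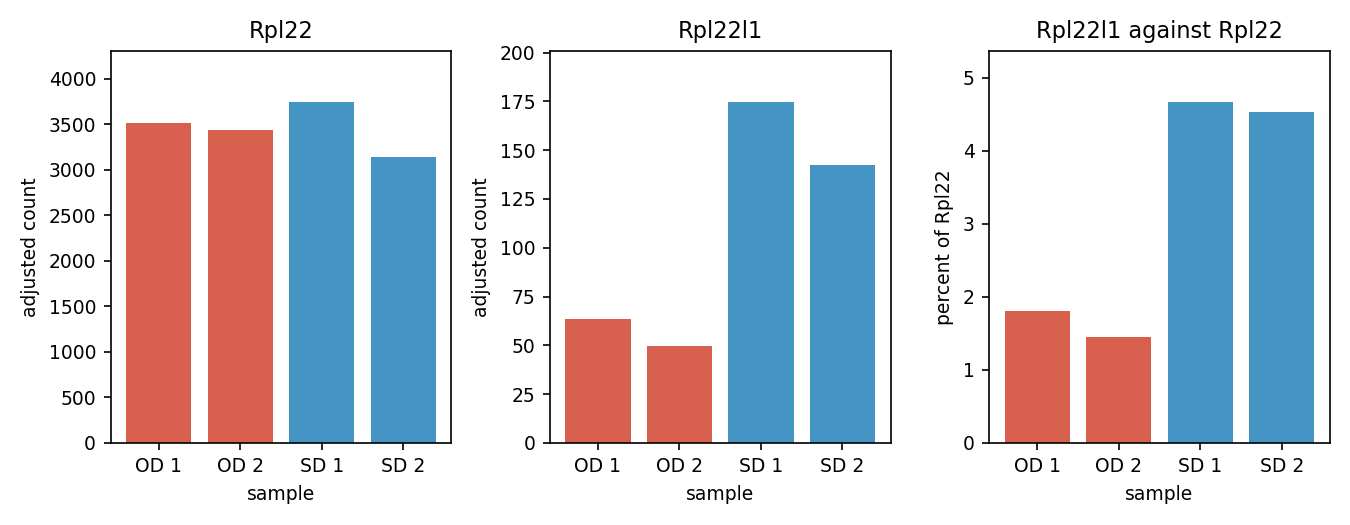
Adjusted counts of Rpl22 and Rpl22l1 and the paralog as a percent of Rpl22 in each of the 4 samples, objective day in red and subjective day in blue, all axes from 0. Rpl22 differs little between conditions, while Rpl22l1 stands at 175 and 142 in SD and at 63.5 and 49.6 in OD.

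Several measurements moved along with Rpl22l1. Of all members it had the lowest GC content, 40.6%, and genes of low GC content were lower in objective day across the table. Once the GC trend was removed from each sample, its log2 fold change was -1.04 and the adjusted p 0.0725 (limma), past the threshold no longer. Without a variance trend in limma its adjusted p was 0.126. Surface epithelium markers were lower in objective day too: Krt5, Krt14 and Krt15 were each called, Krt12 was near 0 in all samples, and the list summed to 2751 and 5076 in OD and 9809 and 10217 in SD. The 2 OD samples ran in opposite order, since OD 1 held more Rpl22l1 but fewer keratin counts than OD 2. Mitochondrially encoded genes took 3.40% and 2.63% of the total in OD and 6.06% and 6.38% in SD. The part of GC content, of tissue makeup and of library composition in the Rpl22l1 difference was not tested further.

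The transcript of Rpl22l1 also shares sequence with other loci. Of its 50-base windows, as long as a read, 34.4% were in no annotated transcript of another gene in GENCODE M21, and 56.5% were also in the pseudogene Gm15421. That pseudogene was itself listed at 0.929 and 1.92 in OD and at 0 and 2.16 in SD. An antisense gene, Gm33051, overlaps it on the opposite strand, and as the strand setting of the counting is not given in the sources used here, reads of the pair cannot be told apart.

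The other paralogs did not pass the test. Rpl3l, which replaces Rpl3 in heart and skeletal muscle, measured 342 and 422 in OD and 426 and 356 in SD, or 9.32% and 11.2% of Rpl3 in OD and 10.6% and 11.1% in SD. Rpl7l1 stood at 28.4% and 28.0% of Rpl7 in OD and at 24.3% and 26.0% in SD, with no overlap. Its own log2 fold change was 0.03, and that of Rpl7 was -0.13. Rpl36al stood at 20.5% and 21.3% of Rpl36a in OD and at 20.8% and 21.2% in SD. Rps27l, a p53 target, measured 225 and 196 in OD and 221 and 249 in SD, and its ratio to Rps27 was highest in SD 2, at 18.5% against 12.0% to 13.8% in the others. Rps4y2, the older symbol of the locus Rps4l, stood at 10.07% and 10.01% of Rps4x in OD and at 9.19% and 9.55% in SD. Rps3a3, a processed copy on its own locus, measured 1054 and 1042 in OD and 1090 and 910 in SD. Rps19bp1 measured 464 and 426 in OD and 465 and 322 in SD, the widest gap between SD 1 and SD 2 of the tested members on the log2 scale.

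Levels between genes were compared per kilobase of transcript. Per kilobase the 76 subunit and stalk genes with a known transcript ranged from 1273 to 15988 adjusted counts, a 12.6-fold span, and the middle 80% spanned 4.17-fold. The 5 highest were Rplp1 at 15988, Rpl41 at 14984, Rps15 at 12647, Rpl8 at 12262 and Rps28 at 11067. The lowest 5 tested members were Rps3a2 at 48.1, Rpl22l1 at 195, Rpl3l at 281, Rps27l at 446 and Rps4y2 at 498, each a paralog or a copy. The median was 3622 over large and 4482 over small subunit genes. Rps20 was the lowest subunit gene, but its annotated transcript of 3706 bases is far longer than those of the others, so its level per kilobase is uncertain.

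Sequence shared with processed pseudogenes limits how well these levels are known. Ribosomal protein genes have more such copies than most gene families, and a read from a copied stretch aligns to several places. Among the 86 members with a sequence, the median share of 50-base windows found in no other annotated transcript was 41.3%, from 1.35% in Rps27 to 100% in members that include Rpl39l, Rpl3l and Rps19bp1. In 54 members under 50% of windows were unique, and 82 shared at least 1 window with an annotated pseudogene, up to 120 pseudogenes for Rpl7a. Across the 76 subunit and stalk genes, the log2 level per kilobase correlated with the unique share at r = 0.26 (Spearman 0.24), a description over genes that share the same libraries. The shift of SD 2 was also present in the 31 tested members with at least 50% unique windows, of which 30 were below SD 1, with a median log2 difference of -0.25, compared with -0.26 over all tested members.

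**Figure D4:**
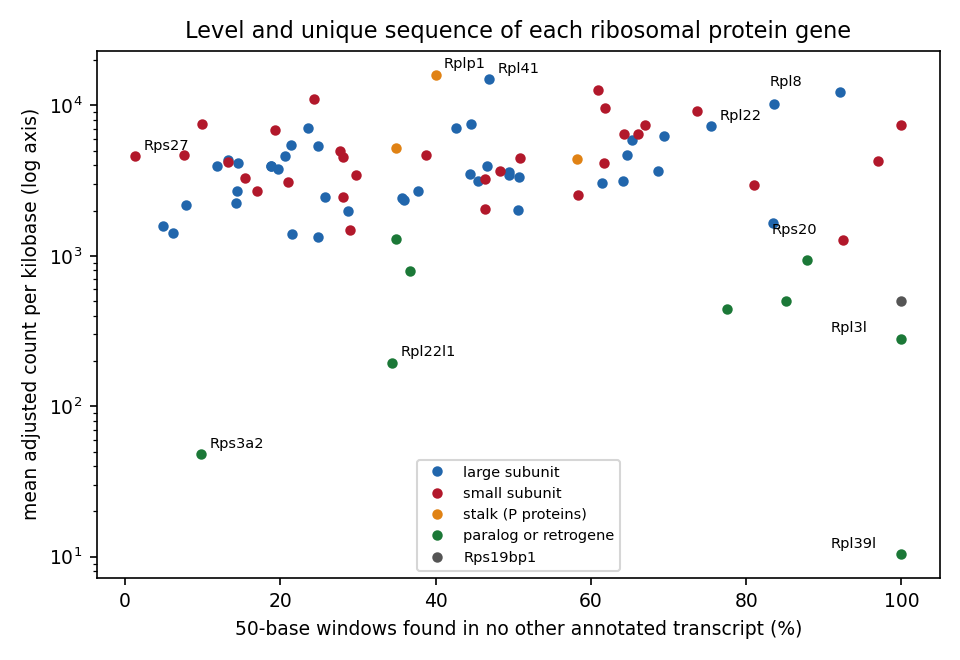
Mean adjusted count per kilobase (log axis) of 86 ribosomal protein genes against the percent of their 50-base windows found in no other annotated transcript. Subunit and stalk genes lie between 1273 and 15988 at every degree of uniqueness, and Rps19bp1 and the paralogs other than Rps3a3 lie below that range.

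Fold changes of the members correlated with GC content in the same direction as those of all tested genes. Across 85 members with a known transcript the log2 fold change correlated with GC content at r = 0.47 (Spearman 0.43), and across 17535 tested genes at r = 0.51 (Spearman 0.58). Without Rpl22l1 the members gave r = 0.43. In the 29 members with the lowest GC content, 40.6% to 49.5%, the median was 0.02, while all tested genes of that range had -0.12. In the 28 members of the highest range, 54.2% to 60.8%, the members' median was 0.14 and that of all genes 0.12. Once the trend of all genes was removed, r was -0.01 over the 85 members, -0.33 over the 76 subunit and stalk genes with a known transcript and -0.31 over the members without Rpl22l1, against -0.0014 over all tested genes. These correlations are across genes, which are not independent replicates. After the GC trend was removed, the median over members was 0.04 and none was called, against 1.12% of all genes. The smallest adjusted p among members was then that of Rpl15, at 0.0657 (log2 fold change -0.35, limma).

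**Figure D5:**
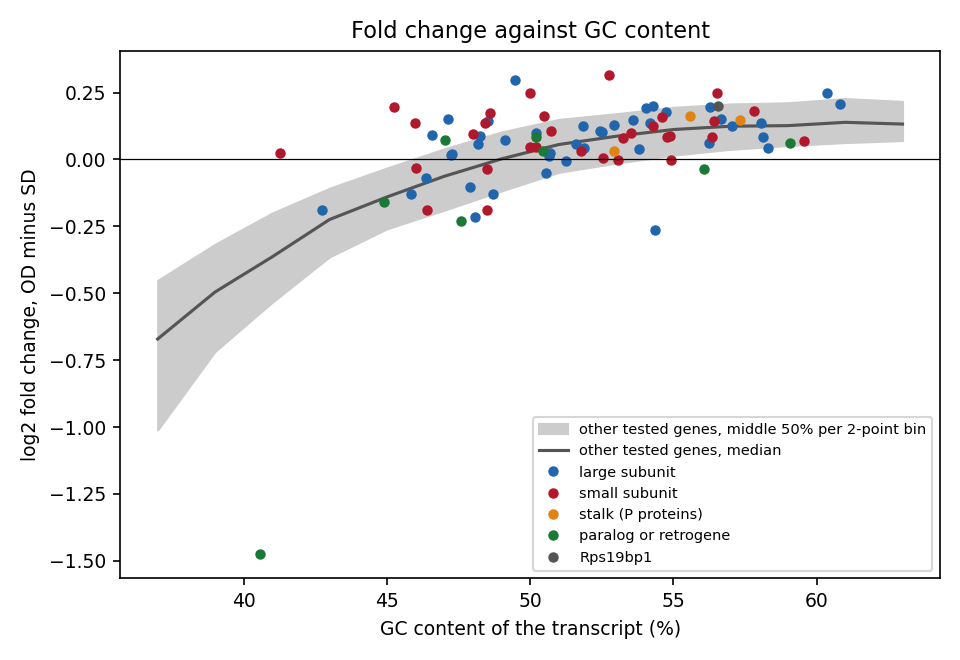
Log2 fold change (objective minus subjective day) against GC content of the transcript for 85 ribosomal protein genes (points) and all other tested genes (line, median, and band, middle 50% in bins of 2 percentage points). Members at high GC content lie near the line, and Rpl22l1 lies at 40.6% and -1.47.

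Genes that work with the ribosomal proteins were described from lists of translation genes. Fau and Gnb2l1, which encode ribosomal proteins that the name rule misses, were not called. Among 20 other mRNAs of the TOP class, 4 fell in objective day and none rose, where 7.45% and 1.06% of all tested genes did so. The list's median was -0.04, and 7 of the 20 were above 0. The conditions did not overlap for 7 genes lower and 3 higher in objective day, against 28.2% and 27.9% of all tested genes. The 4 were Tpt1, the translationally controlled tumour protein, at 7381 and 6387 in OD and 10338 and 9113 in SD (-0.50, adjusted p = 0.0199, limma), together with the initiation factor subunit Eif3e at -0.46 and the histone chaperones Nap1l1 at -0.34 and Npm1 at -0.35. Tpt1 was still called with the GC trend removed, at -0.57, whereas Eif3e was then at 0.00.

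Of 32 ribosome biogenesis genes, 2 fell and none rose: the box C/D snoRNP protein Nop58 at -0.38 and the large subunit export adaptor Nmd3 at -0.36. The list's median was 0.10, near that of the ribosomal proteins. Among 25 tested regulators of ribosomal protein synthesis, 3 fell and 2 rose. The S6 kinase gene Rps6kb1 at -0.40, the RNA-binding protein gene Larp4 at -0.39 and the cap-binding factor Eif4e at -0.37 were lower, while Trp53 at 0.36 and Eif4ebp2, which restrains Eif4e, at 0.28 were higher. Of 11 chaperones and importers of ribosomal proteins 3 fell, the importin Ipo7 at -0.49 and again Nap1l1 and Npm1. The 76 mitochondrial ribosomal protein genes gave 1 call, Mrps18c, which fell by 0.49 on the log2 scale (adjusted p = 0.0474, limma), and a median of 0.05. Over all lists together 11 of 165 genes fell and 2 rose, where 7.45% and 1.06% of all tested genes did so. With the GC trend removed Tpt1 alone was called among them. The values of Rps6kb1 (0.15), Larp4 (0.20), Eif4e (0.07) and Nmd3 (0.22) then turned above 0, and Ipo7 and Nop58 stood at -0.03 and -0.12. Leaving out a library also changed this count, to 0 without OD 2 (28 at an unadjusted p under 0.05, limma), 4 without OD 1 and 27 without SD 1.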

How the data were processed

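Poly-A RNA was sequenced in 4 samples as single reads of 50 bases on 1 lane. The authors aligned the reads to Ensembl release 72 with TopHat 2.0.9 and Bowtie2 2.1.0 after CASAVA 1.8, counted with HTSeq and compared conditions with edgeR. The strand setting, the filter and the treatment of reads with several alignments are not given in the sources used here. The deposited values are a signal per gene and sample, gene counts rescaled by the authors to like library sizes, which leaves decimals. Because they are not whole counts, and whole reads could be recovered for SD 1 alone, the planned count test was replaced. The authors' own log2 fold change, p-value and adjusted p columns were not used.

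Differences on log2(value + 1) were fitted in limma 3.58.1 (R 4.3.3) with a variance trend. Genes entered if 2 samples or more reached 10, with Benjamini-Hochberg adjustment over all 17784 genes at 0.05. The analysis was tested on simulated data in which genes varied independently. These had no GC trend and no shift of a gene group in a single library, so the test does not cover those features of the data. GC content, length and 50-base windows came from GENCODE M21 (GRCm38, a later annotation than the authors'), from the shortest transcript with the principal coding sequence. No genome sequence was used. Features were known for 86 members. The ID listed as Rpl24 is a neighbouring gene in M21, so Rpl24 has none. GC trends were removed with a local regression of span 0.3. Members named are those called, the 5 largest differences each way, the 5 highest and lowest levels per kilobase, the paralogs with partners, members with separate roles and those next to the filter. Others were named after their values were seen. The members and lists were chosen with earlier results of these data known. Figures were drawn with matplotlib 3.10.9. Some genes are not reported here by name.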

Additional observations from a re-analysis of the deposited data

How the results depend on the processing

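The precision is limited by 2 samples per condition and by the adjusted form of the values, from which depth cannot be read directly, and a test on whole reads was not run because they could not be recovered in all samples. In the samples numbered alike the deviations from the condition means correlated at 0.32 over all genes and 0.26 over members, but only 2 pairs exist and no label ties them. With the replicate number as a block, 14 members (4 lower, 10 higher), 3613 of all genes and 34 listed pathway genes were called, against 1, 1514 and 13 without it. With block and GC trend removed together 9 members were called, a count given here without the share of all genes. With block and length trend removed 26 members, 5005 genes and 51 pathway genes were called. Removal of the GC trend alone left 0 members (8 at an unadjusted p under 0.05, limma), 196 genes and 1 pathway gene. Without a variance trend limma called 0 members (2 at an unadjusted p under 0.05), 0 genes (3586) and 0 pathway genes (23). Members called numbered 2 with upper quartile scaling, 3 without mitochondrial genes and 3 at a threshold of 0.1. The share of all genes called is not given here for the latter 2 settings. A further 2 subsets left out Rpl22l1 and were not refitted, so 0 members called was fixed beforehand in both. They were the members without Rps19bp1 and the paralogs (8 at an unadjusted p under 0.05, limma) and those with at least 50% unique windows (1 at that level). The subset by unique windows was an alternative chosen after seeing the data, in place of windows unique in the genome, which were not run. Leaving out 1 sample gave 1 to 29 members, 664 to 2557 genes and 0 to 27 pathway genes, lowest for genes and pathway lists without OD 2 and highest without SD 1, and member medians from -0.057 without SD 2 to 0.20 without SD 1.

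Among named members that were not called, signs turned in some fits. Of those below, Rpl11, Rpl13a, Rpl36a, Rpl8, Rps19bp1, Rps27 and Rps3 were called without SD 1. With the GC trend removed, with or without the block, the log2 fold change was -0.0055 for Rpl3, -0.038 for Rpl38, 0.090 for Rpl5, -0.031 for Rplp0, -0.051 for Rps19, 0.0060 for Rps27l, 0.0021 for Rps4x, -0.055 for Rps4y2 and -0.018 for Rpsa. Leaving out 1 sample moved the log2 fold change over ranges that cross 0: -0.11 to 0.015 for Rpl10, -0.027 to 0.28 for Rpl11, -0.065 to 0.36 for Rpl13a, -0.11 to 0.15 for Rpl22, -0.12 to 0.21 for Rpl3, -0.070 to 0.25 for Rpl36a, -0.064 to 0.23 for Rpl36al, -0.069 to 0.19 for Rpl38, -0.19 to 0.11 for Rpl3l, -0.26 to 0.0035 for Rpl7, -0.054 to 0.12 for Rpl7l1, -0.00050 to 0.27 for Rpl8, -0.039 to 0.11 for Rplp0, -0.11 to 0.25 for Rps19, -0.065 to 0.46 for Rps19bp1, -0.065 to 0.28 for Rps27, -0.041 to 0.31 for Rps3, -0.057 to 0.20 for Rps3a3, -0.17 to 0.10 for Rps4x, -0.048 to 0.17 for Rps4y2 and -0.0018 to 0.17 for Rpsa.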

Other observations

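The table also lists 94 rows whose names mark them as ribosomal protein pseudogenes, which the choice of members left out. They summed to 0.694% and 0.779% of the members' adjusted counts in OD and to 0.734% and 0.813% in SD. This percent was highest in SD 2, where the members' own sum was 247234, against 294163 in SD 1. The summed adjusted count of the pseudogene rows was also lowest in SD 2, at 2009.0. It was 2024.8 in OD 1 and 2158.8 in SD 1, and higher still in OD 2. Of the 17 that passed the filter none was called (0 at an unadjusted p under 0.05, limma). Among these 17, 8 were lower in SD 2 than in SD 1, with a median log2 difference of 0.13, compared with 84 of the 86 tested members and a median of -0.26.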
